A study of Mus musculus with 8 samples.

Results

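The transcripts described here are those of 40 genes of ribosome biogenesis and RNA polymerase I, taken by symbol from a table of 17847 genes, in which all 40 were found. RNA was measured in 4 Cox10-/- and 4 wild-type libraries of muscle stem cells, which carry Pax7 and rebuild injured muscle fibres, sorted from adult C57Bl/6 mice as CD34+ cells without CD31, CD45, Sca1 or DAPI signal. In the Cox10-/- animals a floxed Cox10 allele was deleted by a Cre recombinase that is driven by Pax7 and active only with tamoxifen (Pax7-Cre ERT2), so the deletion is limited to Pax7-expressing cells. The labels of both genotypes give 1 intraperitoneal dose of tamoxifen at 200 mg/kg, cells were taken 2 days later, and whether wild-type animals carried the driver or the floxed allele is not stated in the sources used here. Cox10 encodes the enzyme that makes haem O, the precursor of haem A in respiratory complex IV. Values are log2 CPM, the read count scaled to library size and put on a log2 scale, so a difference of 1 is a change of 2-fold. The libraries held 1694019 to 4648041 reads counted in genes, and each of the 40 genes had at least 16 reads in every library. No label says that each sample came from its own animal, so p-values measure the spread between these samples.

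Ribosomes are assembled in the nucleolus. RNA polymerase I transcribes the long precursor of ribosomal RNA, small nucleolar ribonucleoproteins (snoRNPs) modify it, and assembly factors fold it, cut it and join it to ribosomal proteins to give a small and a large subunit. The programme is one of the largest uses of energy and nucleotides in a growing cell, MYC is a known activator of many of its genes, and in quiescent muscle stem cells ribosome production is held low and rises when the cells are activated.

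The promoters of 3 members that were lower in Cox10-/- cells are shown because MYC and its partner MAX bind the E-box, whose letters are CACGTG and read the same on both strands. Each sequence runs from 250 bases before to 50 bases after the start site given by RefSeq (build GRCm38.p6), 5′ to 3′ on the gene's strand, and capitals mark the E-box.
Tsr1: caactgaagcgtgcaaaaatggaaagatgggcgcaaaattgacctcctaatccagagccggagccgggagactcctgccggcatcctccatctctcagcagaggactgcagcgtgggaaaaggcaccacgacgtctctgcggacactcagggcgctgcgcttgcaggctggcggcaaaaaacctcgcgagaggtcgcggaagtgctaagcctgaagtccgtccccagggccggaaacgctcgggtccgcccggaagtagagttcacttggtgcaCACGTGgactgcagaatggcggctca
Pes1: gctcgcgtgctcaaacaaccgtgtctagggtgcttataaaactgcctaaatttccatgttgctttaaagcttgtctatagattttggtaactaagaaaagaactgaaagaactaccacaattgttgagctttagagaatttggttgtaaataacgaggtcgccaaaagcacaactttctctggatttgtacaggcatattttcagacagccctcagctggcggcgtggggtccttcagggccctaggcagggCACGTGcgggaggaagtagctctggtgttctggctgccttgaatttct
Noc3l: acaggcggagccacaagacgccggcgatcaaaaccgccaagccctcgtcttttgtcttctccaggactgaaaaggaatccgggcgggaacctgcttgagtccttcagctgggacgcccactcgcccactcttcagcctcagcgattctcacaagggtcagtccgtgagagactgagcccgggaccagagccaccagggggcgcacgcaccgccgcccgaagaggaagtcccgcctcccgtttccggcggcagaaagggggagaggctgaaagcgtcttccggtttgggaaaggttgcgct
The Tsr1 window lies at chr11:74897830-74898129 on the plus strand, with the E-box starting 24 bases after the start site. The Pes1 window lies at chr11:3963725-3964024 on the plus strand, with the E-box starting 2 bases after the start site. The Noc3l window at chr19:38819188-38819487 on the minus strand holds none. RefSeq promoters were matched for 36 of the 40 members. Bop1, Fbl, Rrp12 and Npm1 had no match, so 6 of the 8 lower members could be searched. Of the 36 members matched 8 (22.2%) hold an E-box, against 1245 of 11044 genes tested (11.3%). The 8 are Tsr1, Pes1, Nop2, Ltv1, Utp20, Mybbp1a, Rrn3 and Wdr43, of which Tsr1 and Pes1 passed the test. Among the other genes of the pathway 17 of 104 matched promoters (16.3%) hold it, and among cytosolic ribosomal proteins 6 of 58 (10.3%). A match describes letters in this window and is no evidence of binding.

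The deleted gene was read as a check of the labels, and its values did not separate the genotypes. Cox10 was at 3.51, 3.69, 3.49 and 2.05 log2 CPM in Cox10-/- replicates 1 to 4, against 3.98, 3.42, 4.12 and 3.69 in wild-type replicates 1 to 4. The genotypes overlapped, and the difference of -0.62 ± 0.34 (SE, n = 4 per genotype) did not pass (adjusted p = 0.246, exact two-sided permutation p = 0.2, smallest possible 0.0286). Without Cox10-/- replicate 4, the shallowest library, the difference was -0.24. Which exon is floxed is not stated, and the gene's value includes reads from any exon.

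Of the 40 members 8 were lower in Cox10-/- cells, 0 were higher and 32 did not pass (limma, Benjamini-Hochberg adjusted over all 17801 genes tested, threshold 0.05). The 8 were Bop1, Fbl, Noc3l, Noc2l, Polr1a, Dkc1, Tsr1 and Pes1, at 55.6% to 79.0% of the wild-type geometric mean. They make up 20% of the members, where 8.51% of all genes tested were lower. In a fit limited to genes with a mean of at least 2 log2 CPM, 9 members (22.5%) were lower, against 10.3% of its genes. At an unadjusted p under 0.05, 16 members were lower and 1 was higher, against 16.9% of all genes lower and 14.1% higher. Limma with voom weights on recovered reads gave 9 members lower and 0 higher, against 8.97% of all genes lower and 7.92% higher. The median log2 fold change of the members was -0.28, against -0.06 over all genes, and 33 of 40 (82.5%) lay below 0, against 55.2% of all genes. All 4 Cox10-/- libraries lay below all 4 wild-type libraries for 9 members (22.5%), against 11.8% of all genes, and above them for 1 member, Ubtf, against 9.3% of all genes. The single calls rest on small differences. Without wild-type replicate 1, 3 or 4 only 2 members were lower, which is 5% of them, and 5.26%, 5.44% and 5.65% of all genes were lower in the same 3 fits, so the members' share no longer exceeded that of all genes. Without Cox10-/- replicate 3 or 4, 3 members (7.5%) were lower, against 5.43% and 6.92% of all genes, and without Cox10-/- replicate 2, 4 members (10%) were, against 6.87%. After median centring of the libraries 4 members were lower (10%), against 7.07% of all genes.

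**Figure D1:**
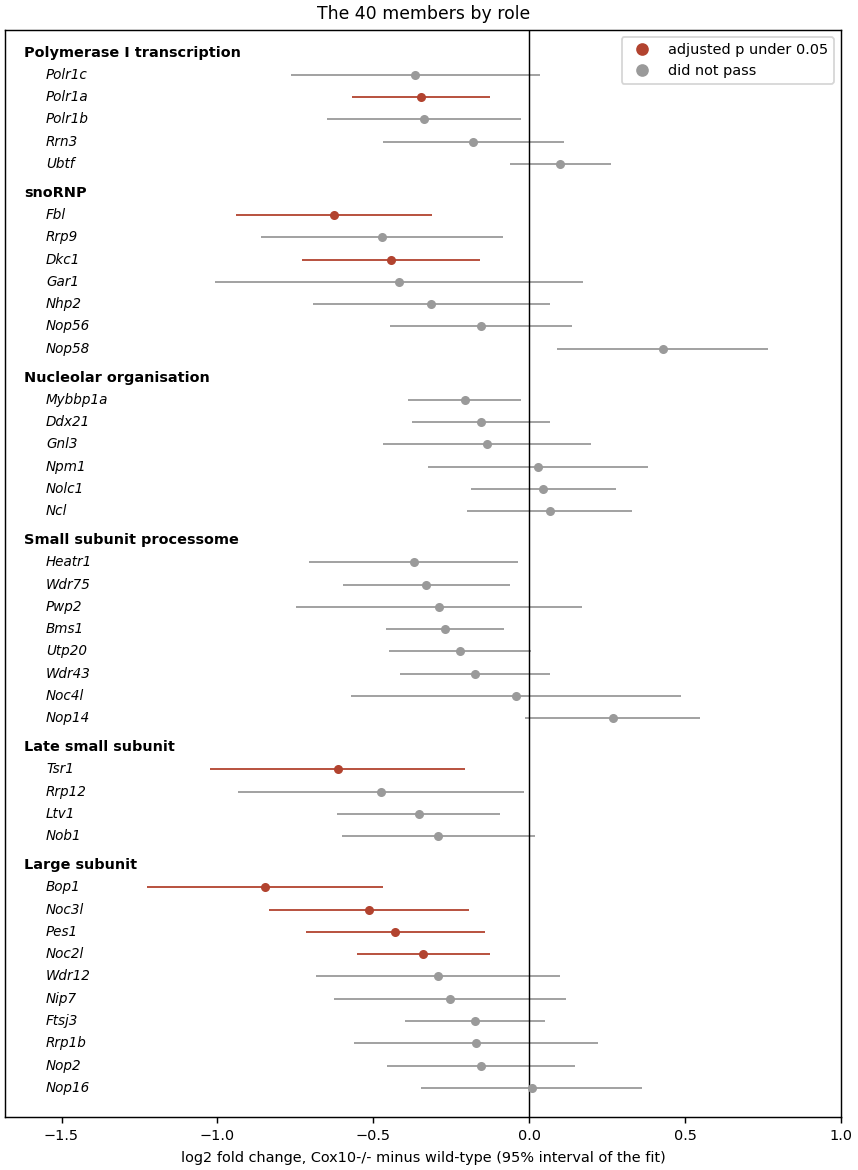
Log2 fold change (Cox10-/- minus wild-type, x axis) of the 40 members, grouped by role, with the 95% interval of the fit as a bar; red points passed the adjusted threshold of 0.05 and grey points did not. The 8 red points lie between -0.85 (Bop1) and -0.34 (Noc2l), 33 points lie below 0, and Nop58 at 0.43 lies farthest to the right.

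**Figure D2:**
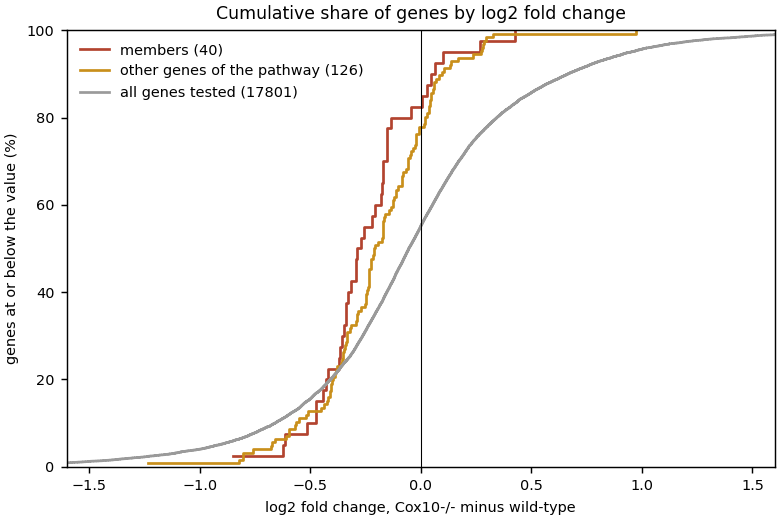
Cumulative share of genes (y axis, %) at or below each log2 fold change (x axis, Cox10-/- minus wild-type) for the 40 members, 126 other genes of ribosome biogenesis and all 17801 genes tested. At 0 the members stand at 82.5%, the other pathway genes at 77.8% and all genes at 55.2%, and the members' curve is steeper, with no member beyond -0.85 or 0.43.

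Together the 40 members took 3576, 3730, 3365 and 3408 CPM in Cox10-/- replicates 1 to 4, against 3995, 3975, 3733 and 3482 CPM in wild-type replicates 1 to 4. The sum averaged 3520 ± 167 CPM in Cox10-/- and 3796 ± 241 CPM in wild-type libraries (SD, n = 4 each), and the genotypes overlapped. Without Ncl, Npm1 and Nop58, abundant members with differences above 0, it averaged 2501 ± 215 CPM in Cox10-/- and 2890 ± 153 CPM in wild-type libraries. The genotypes still overlapped, with a highest Cox10-/- sum of 2701 CPM and a lowest wild-type sum of 2695 CPM. A bulk value cannot tell fewer cells of a type from less RNA per cell. Cox10-/- replicate 4 had the lowest Cox10-/- value for 23 of the 40 members.

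RNA polymerase I is a complex of many subunits that initiates at ribosomal DNA with the help of UBTF, which binds the gene's promoter, and RRN3, which joins the polymerase to it. Of the 5 members with these roles 1 was lower (20%, against 8.51% of all genes). Polr1a, which encodes the largest catalytic subunit, was at 7.02, 7.30, 7.03 and 6.85 log2 CPM in Cox10-/- replicates 1 to 4, against 7.35, 7.36, 7.48 and 7.40 in wild-type replicates 1 to 4. All Cox10-/- values lay below all wild-type values, with Cox10-/- replicate 2 close to the lowest wild-type library. Polr1a fell by 0.35 ± 0.10 on the log2 scale (adjusted p = 0.0357). Polr1b, the other large catalytic subunit, was at 4.79, 4.83, 5.01 and 4.76 log2 CPM in Cox10-/- replicates 1 to 4, against 5.17, 4.96, 5.48 and 5.13 in wild-type replicates 1 to 4. Its genotypes overlapped only through Cox10-/- replicate 3 and wild-type replicate 2, and its difference of -0.34 ± 0.14 did not pass (adjusted p = 0.132). Polr1c, a subunit shared with RNA polymerase III, differed by -0.37 ± 0.18 and did not pass (adjusted p = 0.198). Rrn3 differed by -0.18 ± 0.13 (adjusted p = 0.393). Ubtf differed by 0.10 ± 0.07 (adjusted p = 0.397), with a 95% interval of -0.06 to 0.26, so a change of the size seen in Polr1a lies outside its interval. Of 11 other polymerase I factors 1 was lower (9.09%), close to the 8.51% of all genes. This was Ttf1, which ends polymerase I transcription and fell by 0.39 ± 0.12 (adjusted p = 0.0441).

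SnoRNPs carry guide RNAs that direct methylation (box C/D) or pseudouridylation (box H/ACA) of ribosomal RNA. Of the 7 members 2 were lower (28.6%, against 8.51% of all genes), and these are the catalytic proteins of the 2 classes. Fbl encodes fibrillarin, the methyltransferase, and was at 5.25, 5.41, 4.99 and 5.49 log2 CPM in Cox10-/- replicates 1 to 4, against 6.15, 5.95, 5.89 and 5.65 in wild-type replicates 1 to 4. No Cox10-/- library reached the lowest wild-type library, replicate 4. Fbl fell by 0.63 ± 0.14 (adjusted p = 0.012), to 64.8% of wild-type. Dkc1 encodes dyskerin, the pseudouridine synthase, and was at 5.57, 5.46, 5.39 and 5.24 log2 CPM in Cox10-/- replicates 1 to 4, against 5.90, 5.55, 5.98 and 6.00 in wild-type replicates 1 to 4. The genotypes overlapped only through Cox10-/- replicate 1 and wild-type replicate 2, and Dkc1 fell by 0.44 ± 0.13 (adjusted p = 0.0383). Among those that did not pass, Rrp9, which is specific to the U3 particle, differed by -0.47 ± 0.18 (adjusted p = 0.0923), Gar1 by -0.42 ± 0.27, Nhp2 by -0.32 ± 0.17 and the scaffold gene Nop56 by -0.16 ± 0.13.

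Nop58, whose protein pairs with NOP56 in the box C/D particle, lay on the other side of 0. It was at 8.48, 8.68, 8.36 and 8.44 log2 CPM in Cox10-/- replicates 1 to 4, against 8.23, 8.51, 7.79 and 7.72 in wild-type replicates 1 to 4. Wild-type replicate 2 stood among the Cox10-/- values, and the difference of 0.43 ± 0.16 did not pass (adjusted p = 0.082). It passed in 4 of the other settings, among them the fits without wild-type replicate 2, without the 2 shallowest libraries and with the split of replicates 1 and 2 from 3 and 4 as a term. The log2 ratio of Fbl to Nop58 was -3.23, -3.27, -3.37 and -2.95 in Cox10-/- replicates 1 to 4, against -2.08, -2.56, -1.90 and -2.07 in wild-type replicates 1 to 4. It differed by -1.05 with no overlap between genotypes, and that of Nop56 to Nop58 by -0.58, also with no overlap (exact permutation p = 0.0286 each, the smallest possible, and 0.2 adjusted over 14 pairs). The 14 pairs of genes of one complex, chosen after the values were seen, covered the box C/D and H/ACA cores, the PeBoW complex, the 2 NOC pairs and the 3 polymerase I subunits. No pair passed after adjustment, and with 4 libraries per genotype a single pair cannot. The 3 ratios among Polr1a, Polr1b and Polr1c differed by -0.01 to 0.03 between genotypes, and the 3 among Dkc1, Nhp2 and Gar1 by -0.13 to 0.10.

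Many snoRNAs are cut from introns of genes of this pathway, and the libraries were made from total RNA. GENCODE places 21 small RNAs in introns of the members, and 4 of these were measured. All lay near the floor of the file, a CPM of 1 listed as 0. Of the 3 in Nop58, Snord70 was at 0.48, 1.88, 1.53 and 1.82 log2 CPM in Cox10-/- replicates 1 to 4, against 0.50, 0.90, 0.11 and 0 in wild-type replicates 1 to 4. It differed by 1.05 ± 0.39 and did not pass (adjusted p = 0.0853). Gm26287 differed by 0.67 ± 0.38 and Snord11 by 0.57 ± 0.41, and neither passed. Snord82 in Ncl differed by -0.03 ± 0.31. Over the 41 small nucleolar and Cajal body RNAs measured, chosen after the values were seen, 0 were lower and 0 higher in limma and in the voom fit, with 1 in each direction at an unadjusted p under 0.05, and the median was -0.08. Of all genes 8.51% were lower and 7.58% higher in limma.

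Nucleolar organisers and chaperones had the median nearest 0 of the 6 role groups (-0.05), and 0 of 6 passed in limma or in the voom fit (1 lower at an unadjusted p under 0.05). Over all genes 8.51% were lower in limma, 8.97% in the voom fit and 16.9% at that unadjusted p. Mybbp1a, a nucleolar protein that binds MYB-family factors, was at 7.41, 7.47, 7.39 and 7.27 log2 CPM in Cox10-/- replicates 1 to 4, against 7.54, 7.69, 7.61 and 7.53 in wild-type replicates 1 to 4. The genotypes did not overlap, yet the difference of -0.21 ± 0.08 did not pass (adjusted p = 0.11). Ddx21, a nucleolar RNA helicase, was at 7.56, 7.61, 7.37 and 7.43 log2 CPM in Cox10-/- replicates 1 to 4, against 7.80, 7.76, 7.61 and 7.42 in wild-type replicates 1 to 4. Its genotypes overlapped through wild-type replicate 4, and it differed by -0.16 ± 0.10 (adjusted p = 0.331). Gnl3, which encodes nucleostemin, differed by -0.14 ± 0.15. For Ncl (nucleolin) the 95% interval of the difference was -0.20 to 0.33, for Npm1 (nucleophosmin) -0.32 to 0.38 and for the snoRNP chaperone Nolc1 -0.19 to 0.28, so a fall of the size of Bop1 or Fbl lies outside all 3 intervals. The differences of these 3 genes (0.07, 0.03 and 0.05) turned negative when single libraries were left out. Npm1 has many processed pseudogenes, and the counting of reads with several matches is not stated.

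The small subunit processome is the large particle that forms on the growing precursor around the U3 snoRNP. Of 8 members 7 lay below 0 and 0 passed in limma (3 lower at an unadjusted p under 0.05, and 1 lower in the voom fit). Of all genes 55.2% lay below 0, 8.51% were lower in limma, 16.9% at that unadjusted p and 8.97% in the voom fit. Bms1, a GTPase of the particle, was at 7.11, 7.05, 6.92 and 6.87 log2 CPM in Cox10-/- replicates 1 to 4, against 7.22, 7.22, 7.33 and 7.26 in wild-type replicates 1 to 4. Wdr75, of the part that binds the precursor first, was at 5.48, 5.52, 5.32 and 5.10 log2 CPM in Cox10-/- replicates 1 to 4, against 5.76, 5.60, 5.67 and 5.71 in wild-type replicates 1 to 4. In both genes the genotypes did not overlap, with differences of -0.27 ± 0.09 (adjusted p = 0.0541) for Bms1 and -0.33 ± 0.12 (adjusted p = 0.0878) for Wdr75. Heatr1 (-0.37 ± 0.15), Pwp2 (-0.29 ± 0.21), Utp20 (-0.22 ± 0.10) and Wdr43 (-0.17 ± 0.11) did not pass. Nop14 and Noc4l encode partners in the yeast particle: Nop14 differed by 0.27 ± 0.13 (adjusted p = 0.182), and Noc4l by -0.04 ± 0.24, a value that turned positive after median centring or quantile normalization. Noc4l was 0.54 higher in Cox10-/- replicates 1 and 2 and 0.62 lower in replicates 3 and 4, each against wild-type replicates of the same numbers.

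Factors of late small subunit maturation act on the particle as it leaves the nucleolus. All 4 members lay below 0, against 55.2% of all genes, and 1 passed (25%, against 8.51% of all genes lower). Tsr1, a GTPase-like factor of the immature small subunit, was at 5.50, 5.42, 5.43 and 4.56 log2 CPM in Cox10-/- replicates 1 to 4, against 5.81, 5.98, 5.77 and 5.81 in wild-type replicates 1 to 4. Replicate 4 stood apart from the other Cox10-/- libraries, and the other 3 still lay below all wild-type libraries. Tsr1 fell by 0.62 ± 0.19 (adjusted p = 0.0439), and it differed by -0.39 without Cox10-/- replicate 4. Ltv1, an assembly factor that accompanies the small subunit out of the nucleus, was at 5.99, 5.77, 5.62 and 5.61 log2 CPM in Cox10-/- replicates 1 to 4, against 6.30, 6.06, 6.00 and 6.05 in wild-type replicates 1 to 4. These came close but did not overlap, and the difference of -0.36 ± 0.12 did not pass (adjusted p = 0.064). Rrp12, a factor of export, differed by -0.48 ± 0.21 and Nob1, the nuclease of the last cut of the small subunit RNA, by -0.29 ± 0.14, and neither passed.

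Large subunit factors held 4 of the 8 calls, with 4 of 10 members lower (40%, against 8.51% of all genes). Of 47 large subunit factors that are no members 5 were lower (10.6%). PES1, BOP1 and WDR12 form the PeBoW complex, which is needed to process large subunit RNA. Bop1 was at 4.81, 4.59, 4.45 and 4.10 log2 CPM in Cox10-/- replicates 1 to 4, against 5.39, 5.05, 5.53 and 5.37 in wild-type replicates 1 to 4. All Cox10-/- values lay below all wild-type values, and Bop1 fell by 0.85 ± 0.17 (adjusted p = 0.00629), to 55.6% of wild-type. Pes1 was at 5.26, 5.48, 5.66 and 5.33 log2 CPM in Cox10-/- replicates 1 to 4, against 5.81, 5.65, 6.09 and 5.90 in wild-type replicates 1 to 4. The genotypes overlapped only through Cox10-/- replicate 3 and wild-type replicate 2, and Pes1 fell by 0.43 ± 0.13 (adjusted p = 0.0445). Wdr12 differed by -0.29 ± 0.18 and did not pass (adjusted p = 0.296).

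NOC2 and NOC3, known from yeast, escort the large subunit towards the nucleoplasm, and the transcripts of both mouse genes were lower. Noc3l was at 5.56, 5.62, 5.26 and 5.30 log2 CPM in Cox10-/- replicates 1 to 4, against 6.18, 5.58, 6.08 and 5.96 in wild-type replicates 1 to 4. Wild-type replicate 2 lay among the Cox10-/- values and the other 3 wild-type libraries well above them. Noc3l fell by 0.52 ± 0.15 (adjusted p = 0.0328). Noc2l was at 5.96, 5.89, 6.01 and 5.84 log2 CPM in Cox10-/- replicates 1 to 4, against 6.37, 6.14, 6.30 and 6.25 in wild-type replicates 1 to 4. These did not overlap, and Noc2l fell by 0.34 ± 0.10 (adjusted p = 0.0342). The other 5 large subunit members did not pass: the RNA methyltransferase genes Nop2 (-0.16 ± 0.14) and Ftsj3 (-0.18 ± 0.10), Nip7 (-0.26 ± 0.17), Rrp1b (-0.17 ± 0.18) and Nop16 (0.01 ± 0.16, with a 95% interval of -0.35 to 0.36).

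**Figure D3:**
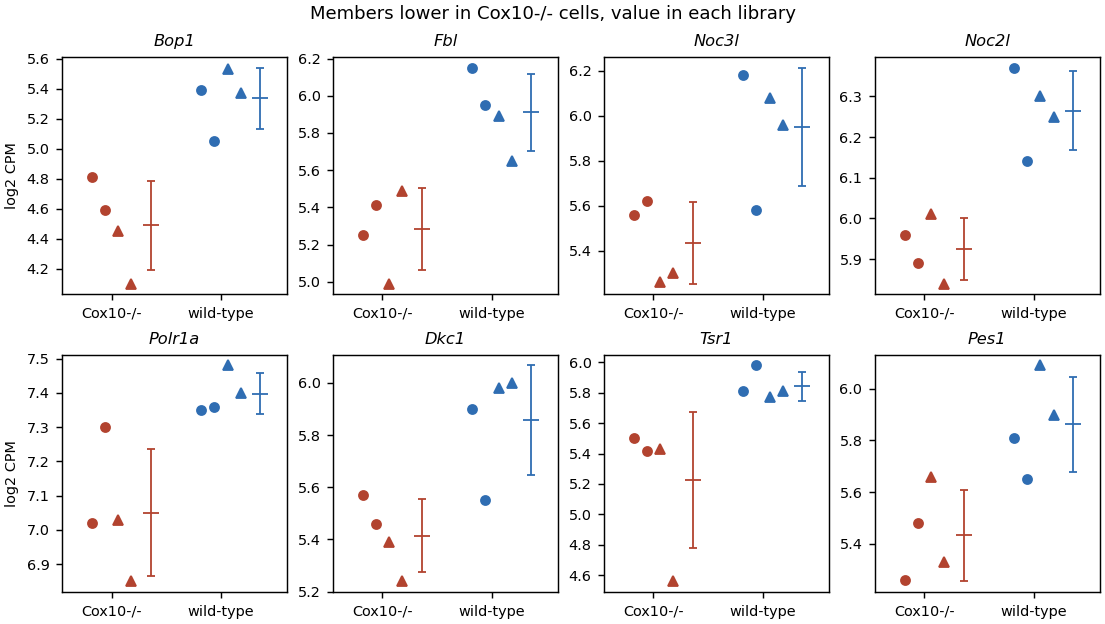
Log2 CPM (y axis, a range of its own in each panel) of the 8 members lower in Cox10-/- cells, by library; red is Cox10-/- and blue wild-type, circles are replicates 1 and 2, triangles replicates 3 and 4, and the dash with its bar is the mean ± SD (n = 4). Bop1, Fbl, Noc2l, Polr1a and Tsr1 show no overlap of the genotypes, while 1 wild-type library, replicate 2, reaches the Cox10-/- values in Noc3l, Dkc1 and Pes1.

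Exons of 12 members overlap exons of a gene on the other strand in GENCODE, and 6 of these are among the 8 lower members: Bop1 (Mroh1), Tsr1 (Srr), Dkc1 (Mpp1), Noc2l (Samd11), Pes1 (4930556J24Rik) and Polr1a (Gm26628). The library kit keeps strand, but whether counting used it is not stated, so reads of these partners cannot be told apart. Fbl and Noc3l have no such overlap. Of the 8 lower members Bop1 and Fbl were called whichever library was left out (8 of 8 fits), with a highest adjusted p of 0.0237 for Bop1 and 0.0456 for Fbl when wild-type replicate 1 was absent. After median centring the call of Fbl was lost (adjusted p = 0.0502), with those of Noc2l, Polr1a and Pes1, while Bop1, Noc3l, Dkc1 and Tsr1 were called. Noc3l was called in 3 of the 8 fits without a library, Polr1a, Dkc1, Tsr1 and Pes1 in 2 and Noc2l in 1.

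The replicates were also taken in 2 pairs by number, a split that no label gives and that was chosen with earlier results of these libraries known. Between replicates 1 and 2 of the 2 genotypes 32 of 40 members were lower in Cox10-/- cells (median -0.18), and between replicates 3 and 4 34 were (median -0.41). Over all genes the medians were 0.05 and -0.15. A total of 30 members (75%) were lower in both, against 35.2% of all genes. All 8 called members were among them, from -0.20 (Polr1a) to -0.72 (Fbl) in replicates 1 and 2 and from -0.35 (Noc2l) to -1.18 (Bop1) in replicates 3 and 4. The 8 were called from these same libraries, and the 33 members below 0 were counted in them too. Neither the place of the 8 nor the share of 75% is separate support. Npm1 and Ncl were lower in replicates 1 and 2 (-0.40 and -0.21) and higher in replicates 3 and 4 (0.45 and 0.34). With each pair averaged to 1 value, which leaves 2 means per genotype, 0 members passed in limma, where 2.32% of all genes were lower, and adjusted p was 0.067 for Bop1 and 0.0938 for Fbl. At an unadjusted p under 0.05 these means gave 7 members lower and 1 higher, against 9.97% of all genes lower and 9.33% higher. With all 8 libraries and a term for the split, 11 members were lower and 1 was higher, against 11.4% of all genes lower.

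**Figure D4:**
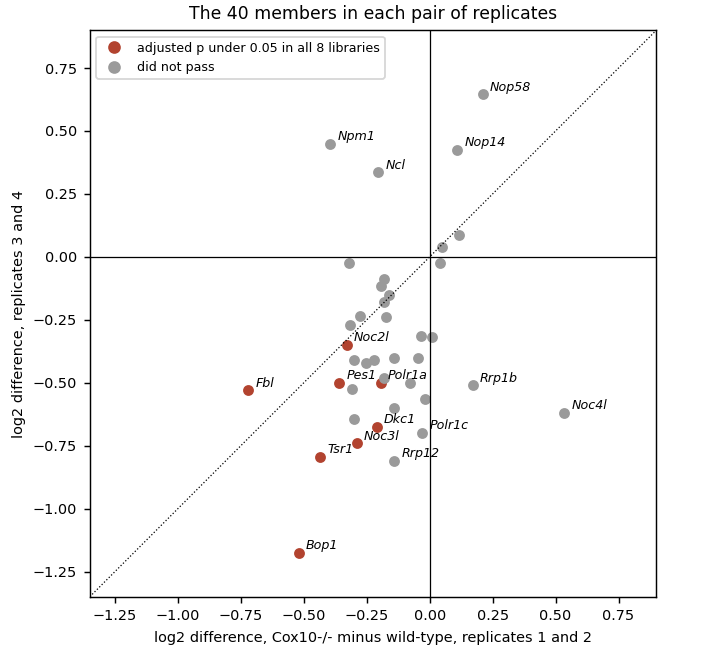
Log2 difference, Cox10-/- minus wild-type, of each of the 40 members in replicates 1 and 2 (x axis) and in replicates 3 and 4 (y axis); red points passed the adjusted threshold over all 8 libraries, grey points did not, and the dotted line marks equal differences. The lower left area holds 30 members, and Npm1, Ncl and Noc4l lie on opposite sides of 0 in the 2 pairs of replicates.

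The rest of the pathway was described by 129 further genes, of which 126 were tested. In Cox10-/- cells 15 were lower (11.9%, against 8.51% of all genes), 1 was higher (0.79%, against 7.58%) and 110 did not pass. The median was -0.21, and 98 of 126 (77.8%, against 55.2% of all genes) lay below 0. Of 38 other small subunit factors 5 were lower (13.2%). Among them were the helicase gene Dhx37 (-0.68 ± 0.16), the RNA acetyltransferase gene Nat10 (-0.57 ± 0.14), Esf1 (-0.36 ± 0.10) and Utp6 (-0.35 ± 0.10). Of 47 other large subunit factors 5 were lower (10.6%). Among them was Mdn1 (-0.80 ± 0.13), which encodes a giant ATPase that remodels the immature large subunit. Mrto4 (-0.81 ± 0.18), Nifk (-0.52 ± 0.14) and Ebna1bp2 (-0.40 ± 0.12) were also lower. Mdn1 was at 8.09, 8.17, 7.81 and 7.48 log2 CPM in Cox10-/- replicates 1 to 4, against 8.77, 8.66, 8.73 and 8.60 in wild-type replicates 1 to 4, with no overlap, and its call held in all 8 fits without 1 library and with 2 means per genotype (adjusted p = 0.00169, and 0.023 with 2 means). Of 9 other snoRNP factors 2 were lower (22.2%) and 1 was higher (11.1%, against 7.58% of all genes). The ATPase gene Ruvbl1 fell by 0.60 ± 0.17 and its partner Ruvbl2 by 0.56 ± 0.14. Znhit6, which encodes an assembly factor of box C/D particles, rose by 0.97 ± 0.21 (adjusted p = 0.00749). Of 21 nucleases and cofactors of ribosomal RNA processing 2 were lower (9.52%), close to the 8.51% of all genes. Pop1, a protein of RNase MRP and RNase P, differed by -1.23 ± 0.30 and Skiv2l2, the helicase of the nuclear exosome, by -0.34 ± 0.10. The 16 calls in the pathway became 9 when Cox10-/- replicate 4 was left out, 5 for Cox10-/- replicate 3, 5 for wild-type replicate 1, 7 for wild-type replicate 3 and 8 for wild-type replicate 4. In these 5 fits the share of pathway genes lower, 3.17% to 6.35%, lay below that of all genes, 5.26% to 6.92%.

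The other RNA polymerases give a comparison, with no test between lists. Of 11 RNA polymerase III subunits 10 (90.9%, against 55.2% of all genes) lay below 0, with a median of -0.39. Only 1 was lower (9.09%), close to the 8.51% of all genes. This was Polr3g, at 2.35, 3.16, 2.69 and 2.24 log2 CPM in Cox10-/- replicates 1 to 4, against 3.90, 3.80, 3.59 and 4.08 in wild-type replicates 1 to 4. The genotypes did not overlap, and Polr3g fell by 1.23 ± 0.26 (adjusted p = 0.00707). Of 7 RNA polymerase II subunits 4 (57.1%) lay below 0 with a median of -0.18, 0 were lower and 1 was higher (14.3%, against 7.58% of all genes). At an unadjusted p under 0.05 in limma 2 of these 7 were lower and 1 was higher, against 16.9% and 14.1% of all genes. The higher one was the largest subunit, Polr2a, which rose by 0.42 ± 0.08 (adjusted p = 0.00334). Among 5 subunits shared between polymerases 0 passed in limma (1 lower and 1 higher at an unadjusted p under 0.05, and 1 higher in the voom fit). Polr1a and Polr2a, the largest subunits of polymerases I and II, thus passed in opposite directions, and with 2 means per genotype neither passed (adjusted p = 0.251 and 0.142), nor did Polr3g (adjusted p = 0.066). Of 79 cytosolic ribosomal proteins 4 were lower (5.06%, against 8.51% of all genes), and 70 (88.6%, against 55.2%) lay below 0. Their median was -0.20 over all libraries, -0.54 for replicates 1 and 2 and 0.17 for replicates 3 and 4. In both pairs of replicates 17 (21.5%) were lower, against 35.2% of all genes.

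MYC acts with its partner MAX on E-boxes, and MNT and the MXD proteins, MXI1 among them, compete with MYC for MAX and repress its targets. Of 10 genes of this network 4 were higher (40%, against 7.58% of all genes) and 0 were lower, also at an unadjusted p under 0.05 and in the voom fit. Mnt was at 6.67, 6.69, 6.73 and 6.68 log2 CPM in Cox10-/- replicates 1 to 4, against 5.65, 5.54, 5.95 and 5.75 in wild-type replicates 1 to 4. It rose by 0.97 ± 0.11 (adjusted p = 0.000103), with the genotypes far apart. Mxi1 rose by 0.54 ± 0.10 (adjusted p = 0.00328) and Mxd1 by 0.40 ± 0.11 (adjusted p = 0.0302). Max was at 6.55, 6.44, 6.65 and 6.84 log2 CPM in Cox10-/- replicates 1 to 4 and at 6.09 in all 4 wild-type libraries, a rise of 0.53 ± 0.10 (adjusted p = 0.00478). Myc was at 7.92, 7.86, 7.74 and 7.76 log2 CPM in Cox10-/- replicates 1 to 4, against 7.98, 8.35, 7.65 and 7.44 in wild-type replicates 1 to 4. The wild-type values bracketed all Cox10-/- values, and the difference was -0.04 ± 0.16, with a 95% interval of -0.38 to 0.31. With 2 means per genotype only Mnt of the 4 passed (adjusted p = 0.00809). The other 6 genes of the network, Myc among them, did not pass in limma with all 8 libraries. The part of this network in the values of the 40 members was not tested.

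**Figure D5:**
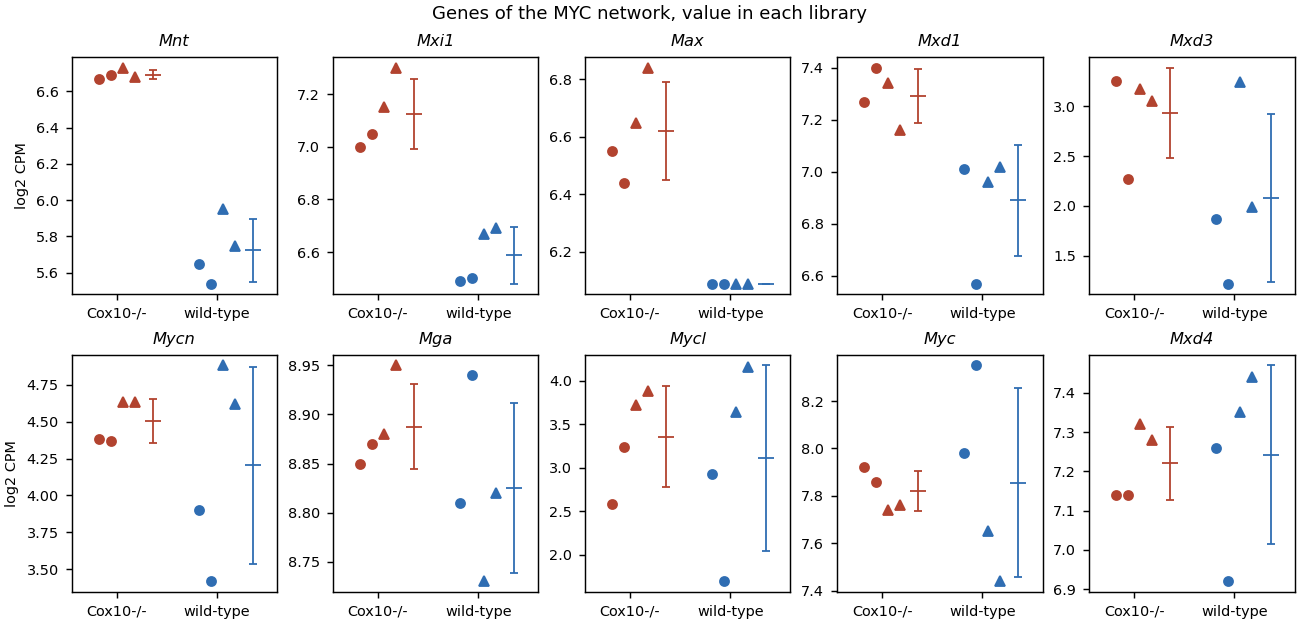
Log2 CPM (y axis, a range of its own in each panel) of 10 genes of the MYC network by library, ordered by p; red is Cox10-/- and blue wild-type, circles are replicates 1 and 2, triangles replicates 3 and 4, and the dash with its bar is the mean ± SD (n = 4). In the first 4 panels, Mnt, Mxi1, Max and Mxd1, all Cox10-/- values lie above all wild-type values, while those of Myc lie between 7.74 and 7.92, inside the wild-type range of 7.44 to 8.35.

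Over all 17801 genes 1514 were lower and 1349 higher, so 47.1% of the calls were higher, and 58.4% after median centring. The 2863 calls became 1810 when Cox10-/- replicate 3 was left out and 1880 when wild-type replicate 1 was. Other groups of transcripts moved in the same libraries, where 8.51% of all genes were lower and 7.58% higher. Of 10 muscle stem cell markers 5 were lower, with a difference of -1.29 ± 0.11 for Pax7 (adjusted p = 1.9e-05), and the list summed to 1659 to 1826 CPM in Cox10-/- and 2421 to 3063 CPM in wild-type libraries. Of 10 mitotic markers 5 were higher (1 in the voom fit), and all 10 were at an unadjusted p under 0.05, against 14.1% of all genes. Their sums were 375 to 1054 CPM in Cox10-/- and 222 to 643 CPM in wild-type libraries. Of 12 endothelial markers 4 were higher (sums of 374 to 463 CPM in Cox10-/- and 284 to 344 CPM in wild-type libraries), of 8 fibro-adipogenic markers 2 (3497 to 7271 and 3393 to 4548 CPM in the same order of genotypes) and of 7 muscle fibre markers 2 (92.8 to 258 and 57.3 to 151 CPM). Of 6 mural markers 2 were higher and 2 lower (922 to 1160 CPM in Cox10-/- and 592 to 821 CPM in wild-type libraries). Of the 3 immune markers measured 0 passed in limma or in the voom fit (1 higher at an unadjusted p under 0.05), with sums of 24.2 to 44.7 CPM in Cox10-/- and 23.5 to 31.3 CPM in wild-type libraries. No marker measured stood at 0 in all 8 libraries, and the part of these markers in the values of the 40 members was not tested.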

How the data were processed

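Per the submitters' processing notes, Trim Galore, HISAT2, featureCounts, DESeq2 and the build mm9 were used; their versions, the strand setting and the annotation were not given in the sources used here. Per gene, the authors deposited log2 CPM, rounded to 2 decimals, with every CPM of 1 or less at 0, as tested on the file. Blank rows (1054) were dropped. Low values stepped in whole reads (100% of those up to 20 reads within 0.1 of a whole number), which gave the reads per library.

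The deposited log2 values were fitted with limma (version 3.58.1, R 4.3.3) with no pseudocount, for Cox10-/- minus wild-type: genotype alone, a variance trend and Benjamini-Hochberg adjustment over 17801 genes above 0 in at least 4 libraries. The ± after a difference is the standard error of the fit. Code was tested on simulated data. The planned count tests were not run, since the values deposited are not counts; limma with voom weights on recovered reads replaced them, chosen after the data were seen. Role groups, pathway, MYC, polymerase and marker lists, and the members, were chosen with earlier results of these data known. Every member may be named; library values are given for called members and the 2 with the smallest p in each role, and, chosen after its values were seen, Nop58; of other lists at most 4 called genes each are named. Promoters come from RefSeq (GRCm38.p6), overlaps from GENCODE M21, neither of the files' build.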

Additional observations from a re-analysis of the deposited data

Results flagged for a closer look

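In 86 groups of 4 libraries (the 40 members, Cox10, Pax7 and Myc in each genotype) 6 had 1 library far from the other 3 by Dixon's ratio (95% critical value); chance flags about 1 in 20 groups. In Cox10-/- replicate 4 Tsr1 stood at 4.56 log2 CPM against 5.42 to 5.50 in the other 3 Cox10-/- libraries, Pwp2 at 4.33 against 5.23 to 5.41, and Cox10 at 2.05 against 3.49 to 3.69. In Cox10-/- replicate 3 Nop14 stood at 6.99 against 7.22 to 7.23 in the others. In Cox10-/- replicate 2 Ubtf stood at 7.60 against 7.65 to 7.66. In wild-type replicate 2 Rrp1b stood at 5.32 against 5.73 to 5.81. Cox10-/- replicate 4 is also the library with the fewest reads (1694019), and the part of depth in its 3 low values was not tested.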

How the results depend on the processing

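The 8 member calls were 4 after median centring, 2 without the variance trend (5%, against 6.72% of all genes lower), 0 with 2 means per genotype and 12 with the split of replicates 1 and 2 from 3 and 4 as a term. They were 2 to 8 without 1 library, and the 8 without Cox10-/- replicate 1 hold 5 of the original 8. The median of the members, -0.28, ranged from -0.31 to -0.19 over all settings. Calls over all genes (2863) were 858 with 2 means, 3838 with the term, 3479 after quantile normalization and 1810 to 2883 without 1 library; those in the pathway (16) were 8 without the variance trend, 2 with 2 means and 5 to 16 without 1 library; those in the comparison lists (10) were 1 with 2 means and 5 to 12 without 1 library. The main fit did not pair samples by replicate number. Correlations of same-numbered deviations were 0.05, 0.14, 0.11 and 0.13, and those of the other cross-genotype pairs ran from -0.22 to 0.16. Not every library correlated best with its own number, so these values do not settle whether the numbers pair the samples. With the number as a replicate block 10 members passed (9 lower and Nop58 higher), and 3201 genes were called over all genes. Cox10 did not pass in any setting, from -0.79 to -0.24 without 1 library. Signs turned only in genes that did not pass: Npm1 without the 2 shallowest libraries (-0.0433), Myc there (0.15) and after median centring (0.0475), Noc4l after median centring (0.04) and quantile normalization (0.0456); and, without 1 library, Ncl (-0.025 to 0.163), Npm1 (-0.12 to 0.13), Nolc1 (-0.0242 to 0.109), Noc4l (-0.24 to 0.10), Nop16 (-0.0725 to 0.11) and Myc (-0.17 to 0.13). The causes were not tested. The planned edgeR and DESeq2 tests were not run.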
